A study of Mus musculus with 6 samples.

Results

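Interferon regulatory factors (IRFs) are transcription factors that bind DNA through a shared N-terminal domain, at elements built from repeats of GAAA. IRF3 and IRF7 are held in the cytoplasm until kinases below pattern-recognition receptors phosphorylate them, and they then switch on type I interferon genes. IRF9 is the DNA-binding subunit of the complex ISGF3, which carries the interferon signal to interferon-stimulated response elements (ISREs), IRF1 and IRF2 act on overlapping sites as activator and mainly as repressor, and IRF4, IRF5 and IRF8 are best known from lymphoid and myeloid cells. The 8 genes described here, Irf1, Irf2, Irf3, Irf4, Irf5, Irf7, Irf8 and Irf9, were the rows of the deposited expression table with these symbols, out of 36870 distinct symbols, and none was listed more than once. All 8 were among the 13266 genes tested.

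RNA was sequenced from bone marrow mesenchymal stem cells (BMMSCs) of C57BL/6 mice, the cells of flushed marrow that adhere to plastic and are expanded in culture, without a sort for a cell type. By flow cytometry, the paper found its BMMSCs positive for Sca1, PDGFR, CD105, CD90 and CD73 and without CD34 and CD45. Those cells came from control and Tet1/Tet2 double-knockout mice, and the paper does not report such a stain for the siRNA-treated cells. The control group (3 libraries) is labelled Control and received non-targeting siRNA by the siRNA methods, although the sequencing methods call it vehicle-treated, and the siTet1/Tet2 group (3 libraries) received siRNAs against Tet1 and Tet2, which encode enzymes that oxidise methylated cytosine. The labels give passage 2 for all 6 libraries and the methods passage 1, and the age of the mice is not used here. Nothing in the labels or methods says that the replicates came from separate cultures or animals, so the p-values measure the spread between these libraries, which may be technical. Expression is given as RPKM, reads scaled by gene length and sequencing depth, so levels of different genes can be compared per length. The fold changes below are differences in the mean log2(RPKM + 1), siTet1/Tet2 minus control, a scale that understates the change of genes with low values, and the test was limma with Benjamini-Hochberg adjustment over all 13266 genes.

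Of the targeted genes, Tet2 had 2.57, 4.08 and 3.71 RPKM in the controls against 0.358, 0.238 and 0.202 RPKM in the siTet1/Tet2 libraries, and Tet1 lay at or below 0.098 RPKM in every library, too low to be tested. Of 11 stromal markers, 9 were tested and 7 of them fell, and their summed level went from between 1010 and 1456 RPKM in the controls to between 132 and 264 RPKM. Of 11 macrophage markers, all were tested, 6 rose and 3 fell, and their sum went from between 5651 and 7391 RPKM to between 12590 and 15510 RPKM, most of it Lyz2. By the same test, 29.8% of all genes tested fell and 14.7% rose. Cd68, Csf1r and Emr1, which mark macrophages, had control means of 875, 499.5 and 304.5 RPKM in cultures labelled as mesenchymal stem cells. The macrophage markers Mrc1, Fcgr1 and Itgam had control means of 170, 109 and 97.2 RPKM. Those of Ptprc (CD45), Aif1, Mertk and Cd14 were lower, at 52.6, 51.8, 50.7 and 38.8 RPKM. The 3 macrophage markers that fell were Fcgr1, Mrc1 and Aif1. Fcgr1 fell most, to a mean of 27.8 RPKM (log2 fold change -1.93), and of the 6 that rose Lyz2 rose most (1.36). Among the stromal markers, Col1a1 and Col1a2 were highest, with control means of 488 and 437 RPKM. Ly6a (Sca1), Cxcl12, Pdgfrb, Eng (CD105) and Pdgfra had control means of 152, 38.9, 30.2, 23.8 and 9.92 RPKM. Mcam (CD146) and Nt5e (CD73), the 2 tested stromal markers that did not pass the test, had control means of 1.31 and 0.911 RPKM. Thy1 (CD90) and Lepr were below 0.1 RPKM on average in both groups. Under the minimum for testing were 4 of 5 B cell markers, 4 of 5 T cell markers, all 5 markers of plasmacytoid dendritic cells and 5 of 6 neutrophil markers, with Cd3g, Klk1 and S100a9 at the lowest listed value in all libraries. Those tested were Cd79b, Cd4 and S100a8, and all 3 rose. Of 3 tested endothelial markers, 1 rose and 1 fell, none above 2 RPKM on average. These changes moved with the groups, and their part in the IRF results was not tested. In bulk RNA, fewer cells of a type and less RNA per cell cannot be told apart.

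In the control cells, Irf7 was by far the most abundant of the 8 genes. Its mean of 272 RPKM was followed by Irf5 with 81.7, Irf8 with 61.5, Irf1 with 36.5, Irf9 with 35.5, Irf2 with 25.7, Irf3 with 19.9 and Irf4 with 0.343 RPKM. The ranges of neighbours in this order did not overlap, except those of Irf1 and Irf9. In the siTet1/Tet2 cells the order became Irf8 with 65.6, Irf5 with 58.9, Irf2 with 25.2, Irf3 with 21.1, Irf1 with 18.3, Irf9 with 15.5, Irf7 with 7.81 and Irf4 with 0.183 RPKM, and no neighbouring ranges overlapped. Irf7 thus went from the first place to the seventh. The plot of levels in the 6 libraries shows this reordering on a log axis.

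**Figure D1:**
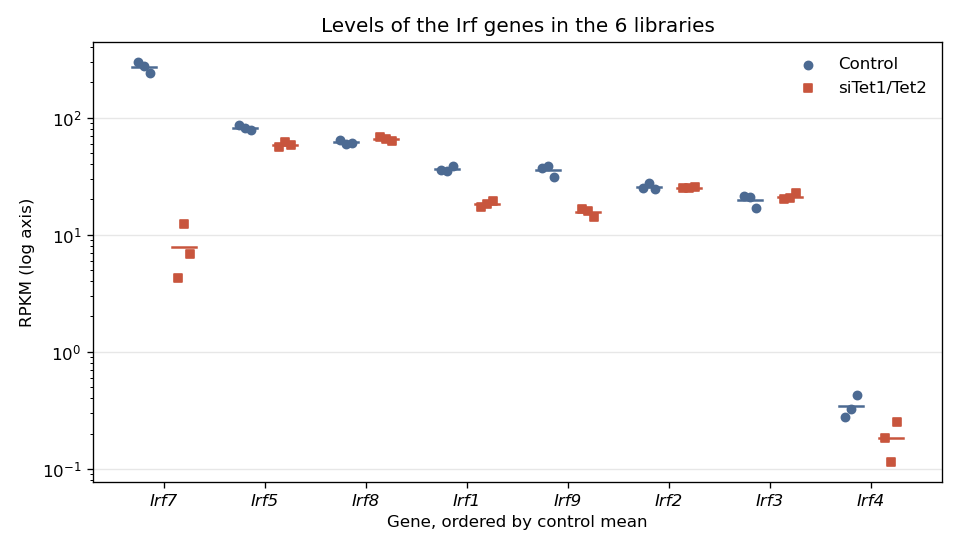
RPKM of the 8 Irf genes (log axis) in the 3 control libraries (circles) and the 3 siTet1/Tet2 libraries (squares), replicates 1 to 3 from left to right, with a line at each group mean. Irf7 drops from a mean of 272 to 7.81 RPKM, Irf1, Irf9 and Irf5 sit lower in every siTet1/Tet2 library, and Irf2, Irf3 and Irf8 overlap between the groups.

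Of the 8 genes, 4 fell with an adjusted p under 0.05 (Irf7, Irf1, Irf9 and Irf5), while 29.8% of all genes tested fell by that rule. None of the 8 rose by the adjusted p, where 14.7% of all genes rose. None rose by an unadjusted p under 0.05 either, for which the share of all genes is not given here. With a p under 0.05 and a change of more than 2-fold, the thresholds of the study, 2 of the 8 were lower (Irf7 and Irf9) against 5.63% of all genes, and 0 were higher against 0.95%. The siTet1/Tet2 libraries all lay below the control libraries for 5 of the 8 (the same 4 and Irf4), against 35.9% of all genes, and for none did they all lie above, against 19.8%. The median log2 fold change of the 8 was -0.32, that of all genes tested -0.09. The scaling of the libraries matters for small changes: of all genes called, 66.9% were lower with the values as deposited, 50.9% after median ratio scaling and 42.1% after quantile normalization, which moved the median of all genes to 0.06. The 4 falls held under each of these scalings. The plot of fold changes shows the 4 intervals well below 0 and the other 4 close to it. For Irf4 this scale understates the change, as its mean after the siRNAs was 53.5% of the control mean.

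**Figure D2:**
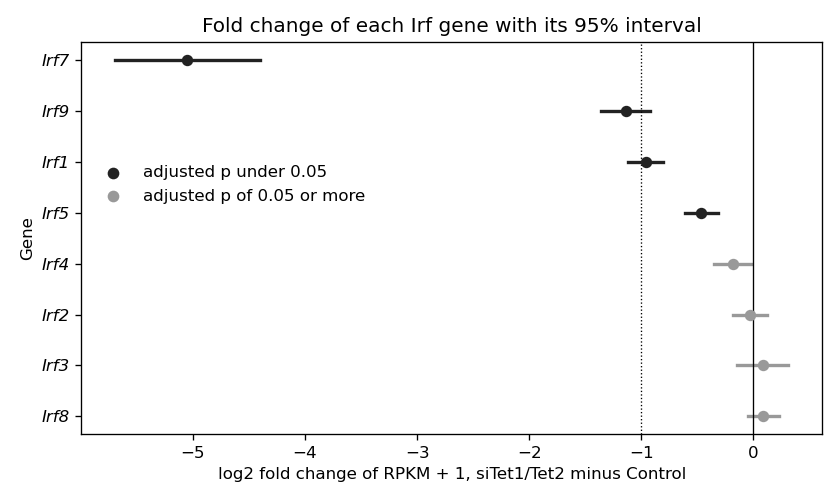
Log2 fold change of RPKM + 1 for each Irf gene (siTet1/Tet2 minus control), with its 95% interval from limma; black marks an adjusted p under 0.05, grey the others, and the dotted line a 2-fold decrease. Irf7 stands apart at -5.05, Irf9 and Irf1 lie on either side of the 2-fold line at -1.14 and -0.96, and Irf5 lies at -0.46.

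The RefSeq sequence around the annotated starts is shown for 3 of the genes, because Irf7 had the greatest decrease of the 8, and because, of Irf1 and Irf2, which recognise overlapping sites, Irf1 passed the test and Irf2 did not. All 8 genes matched RefSeq promoter windows (GRCm38.p6, 250 bases before to 50 after a start), 11 windows in all. In capitals are the CpG of the Irf7 stretch (1 of the 7 in its whole window), a GAS match in Irf1 and an ISRE core and a GAS match in Irf2. GAS, the gamma-activated site bound by STAT dimers, was searched as TTCNNNGAA, and the ISRE core, the pair of GAAA repeats that IRFs contact, as GAAANNGAAA, both on either strand. Each stretch ends before the first annotated base of the gene.
Irf7, chr7:141266482-141266674, minus strand: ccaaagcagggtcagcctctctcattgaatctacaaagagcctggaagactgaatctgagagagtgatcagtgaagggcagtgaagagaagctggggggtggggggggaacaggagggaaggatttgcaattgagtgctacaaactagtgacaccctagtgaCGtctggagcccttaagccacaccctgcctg
Irf1, chr11:53769764-53770013, plus strand: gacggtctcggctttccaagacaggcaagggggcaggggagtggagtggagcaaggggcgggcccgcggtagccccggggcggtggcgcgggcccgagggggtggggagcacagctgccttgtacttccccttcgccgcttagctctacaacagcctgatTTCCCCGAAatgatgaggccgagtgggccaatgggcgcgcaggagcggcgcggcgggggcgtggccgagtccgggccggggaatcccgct
Irf2, chr8:46739495-46739731, plus strand: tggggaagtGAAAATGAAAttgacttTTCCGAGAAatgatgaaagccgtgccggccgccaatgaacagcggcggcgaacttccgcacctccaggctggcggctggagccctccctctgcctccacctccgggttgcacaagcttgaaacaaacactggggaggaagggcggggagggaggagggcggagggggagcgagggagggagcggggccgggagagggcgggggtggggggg

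The GAS match of Irf1 began 90 bases before the start, and 8.3% of the 32851 windows of all genes held such a match. The ISRE core of Irf2 began 241 bases before the start and overlapped a composite ETS-IRF match, searched as GGAANNGAAA on either strand, at 247 bases. Among all windows, 3.44% held the ISRE core and 2.72% the composite. The first Irf8 window also held 2 GAS matches, and the windows of Irf3, Irf4, Irf5, Irf7 and Irf9 held none of the 3 motifs, which says only that these letters are absent from them. CpG, the pair of bases that the TET enzymes act on when the cytosine is methylated, occurred 7 times in the window of Irf7 and 9 and 1 times in those of Irf9, against a median of 7 over all windows. It occurred 32 and 43 times in the windows of Irf1 and 35 times in that of Irf5, both genes that fell. In genes that did not pass the test, it occurred 38 and 8 times in the windows of Irf8. The windows of Irf2, Irf3 and Irf4, which did not pass either, held 19, 18 and 11. The genes that fell therefore included windows both rich and poor in CpG, and windows of the others ranged from 8 to 38. No methylation was measured in these libraries.

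Irf7, the IRF that amplifies type I interferon production and is itself induced by interferon, was at 296, 278 and 241 RPKM in the 3 controls and at 4.29, 12.3 and 6.85 RPKM after the siRNAs. Every siTet1/Tet2 value lay far below every control value, and siTet1/Tet2 replicate 2 was the highest of its group, 2.87 times the lowest. The group means were 272 ± 28.1 and 7.81 ± 4.09 RPKM (SD, n = 3), so the level left was 2.87% of the control mean. The log2 fold change was -5.05 (SE 0.28, 95% interval -5.69 to -4.41, adjusted p 7.2e-06). Among the 13266 genes tested, this was the decrease of rank 1 on the scale with a pseudocount of 1, but of rank 10 and 21 with pseudocounts of 0.1 and 0.01 and of rank 24 by the ratio of the group means. Without siTet1/Tet2 replicate 2 it was -5.40 and without replicate 1 of that group -4.73. The gene lies on chromosome 7 (141262706 to 141266481, minus strand, GRCm38), and 1.19% of its exon bases are shared with Phrf1 on the opposite strand, whose level was 14.0 and 11.9 RPKM in the control and siTet1/Tet2 groups.

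Irf3, the constitutive counterpart of Irf7 in the induction of interferon genes, was listed at 21.6, 21.1 and 17.0 RPKM in the controls and at 20.0, 20.5 and 22.7 RPKM in the siTet1/Tet2 libraries. The groups overlapped, and the lowest value was that of control replicate 3. The log2 fold change was 0.09 (SE 0.10, 95% interval -0.14 to 0.31, adjusted p 0.51), which leaves room for changes up to 1.24-fold higher or 1.10-fold lower. With Bcl2l12 on the opposite strand, it shares 2.56% of its exon bases. Since both genes are read from the same library, their ratio does not depend on a scaling factor of the library. Irf7 over Irf3 was 13.8, 13.2 and 14.2 in the controls and 0.214, 0.600 and 0.302 in the siTet1/Tet2 libraries, without overlap. The level of Irf7 thus changed from above that of Irf3 to below it in all 3 libraries.

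Irf9, the DNA-binding subunit of ISGF3, was at 36.8, 38.6 and 31.0 RPKM in the controls and at 16.5, 15.9 and 14.3 RPKM after the siRNAs. The ranges of the groups were far apart. The means were 35.5 ± 3.95 and 15.5 ± 1.15 RPKM (SD, n = 3), a ratio of 2.28, and the log2 fold change was -1.14 (SE 0.09, 95% interval -1.35 to -0.92, adjusted p 4.8e-05). Of its exon bases, 2.28% are shared with Rnf31, a ubiquitin ligase gene on the same strand, which also fell, with a mean of 14.8 RPKM in the controls and 9.86 RPKM in the siTet1/Tet2 libraries. Within a library, the ratio of Irf7 to Irf9 was between 7.2 and 8.06 in the controls and between 0.26 and 0.774 in the siTet1/Tet2 libraries.

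Irf1, an activator that is induced by interferon-gamma, was at 35.9, 35.2 and 38.4 RPKM in the controls and at 17.2, 18.4 and 19.3 RPKM in the siTet1/Tet2 libraries. The replicates were close together, with a coefficient of variation of 4.58% and 5.68%, and the groups were far from overlapping. The means were 36.5 ± 1.67 and 18.3 ± 1.04 RPKM (SD, n = 3), and the log2 fold change was -0.96 (SE 0.07, 95% interval -1.11 to -0.80, adjusted p 2.2e-05). The change was just under 2-fold, so Irf1 was not counted as altered, but it was when each library was rescaled to the same sum, with a log2 fold change of -1.04. Of its exon bases, 3.4% are shared with Gm17334 on the opposite strand, which was not analysed here.

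Irf2, which competes with Irf1 for its sites, was at 25.3, 27.5 and 24.4 RPKM in the controls and at 25.0, 25.1 and 25.4 RPKM in the siTet1/Tet2 libraries. The siTet1/Tet2 values lay within the range of the controls. The log2 fold change was -0.03 (SE 0.06, 95% interval -0.18 to 0.12, adjusted p 0.75), and its sign was positive after median ratio scaling and quantile normalization, in neither with an adjusted p under 0.05. The ratio of Irf1 to Irf2 was 1.42, 1.28 and 1.57 in the controls and 0.688, 0.732 and 0.759 after the siRNAs. Irf1 was above Irf2 in each control library and below it in each siTet1/Tet2 library.

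Irf5, which acts downstream of Toll-like receptors and MyD88 and is abundant in macrophages, was at 86.2, 81.1 and 77.7 RPKM in the controls and at 56.6, 61.9 and 58.3 RPKM in the siTet1/Tet2 libraries. The groups did not overlap, although this was the smallest of the 4 decreases. The means were 81.7 ± 4.3 and 58.9 ± 2.69 RPKM (SD, n = 3), or 72.2% of the control mean, and the log2 fold change was -0.46 (SE 0.06, 95% interval -0.61 to -0.32, adjusted p 0.00064). With Tnpo3 on the opposite strand it shares 14.2% of its exon bases, and whether the authors' counting used strand is not stated. Tnpo3 was at 25.6 RPKM in the controls and 23.6 RPKM in the siTet1/Tet2 group.

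Irf8, a factor of monocytes, macrophages and dendritic cells, was at 64.0, 59.5 and 61.1 RPKM in the controls and at 68.1, 65.6 and 63.1 RPKM in the siTet1/Tet2 libraries. The lowest siTet1/Tet2 value lay under the highest control. The log2 fold change was 0.09 (SE 0.06, 95% interval -0.04 to 0.23, adjusted p 0.24), but it was 0.21 (adjusted p 0.036) after median ratio scaling and 0.17 (adjusted p 0.045) after quantile normalization, so whether Irf8 counts as higher depends on the scaling. The ratio of Irf5 to Irf8, free of such a factor, was 1.35, 1.36 and 1.27 in the controls and 0.831, 0.943 and 0.924 in the siTet1/Tet2 libraries, and did not overlap.

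Irf4, a factor of B cells, plasma cells and T cells, was by far the lowest of the 8, at 0.278, 0.327 and 0.423 RPKM in the controls and at 0.183, 0.114 and 0.253 RPKM after the siRNAs. Every siTet1/Tet2 value was under every control value. Reads were estimated from the depth inferred from low values and from the length of the longest annotated transcript, 4764 bases. By that estimate, these levels stood for about 50, 51 and 65 reads in the controls and 33, 21 and 43 in the siTet1/Tet2 libraries. The mean after the siRNAs was 53.5% of the control mean, whereas the log2 fold change on the scale with a pseudocount of 1 was -0.18 (SE 0.07, 95% interval -0.35 to -0.02, unadjusted p 0.036, adjusted p 0.073). With a pseudocount of 0.01 it was -0.91 (adjusted p 0.084). Irf4 therefore did not pass the test after adjustment.

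As a share of the summed RPKM of the 8 genes, Irf7 made up between 49.1% and 52.3% in the controls and between 2.06% and 5.59% in the siTet1/Tet2 libraries. The sum went from 566, 541 and 491 RPKM in the controls to 208, 220 and 210 RPKM. Leaving Irf7 out, it went from 270.0, 263 and 250.1 RPKM to 204, 207 and 203 RPKM, so the other seven genes together also lay lower. Irf8 supplied between 11.0% and 12.4% of the sum in the controls and between 29.9% and 32.7% in the siTet1/Tet2 libraries. Irf5 went from between 15.0% and 15.8% to between 27.2% and 28.2% of the sum, although its own level fell. The plot of shares shows Irf7 giving way to Irf8 and Irf5.

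**Figure D3:**
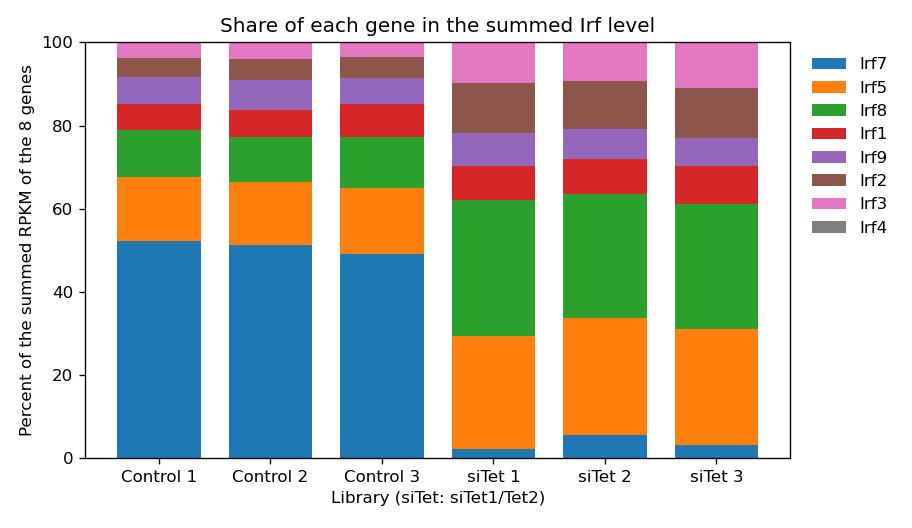
Share of each Irf gene in the summed RPKM of the 8 genes, in percent, for the 3 control and the 3 siTet1/Tet2 libraries (siTet). Irf7 takes between 49.1% and 52.3% of a control bar and at most 5.59% of a siTet1/Tet2 bar, where Irf8 and Irf5 take the most; Irf4 is too small to be seen.

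The genes around the family were taken from lists of ligands, receptors, upstream kinases, regulators, partners and targets. The interferon genes themselves were near the floor of the table. All 21 listed ligand genes had a mean over the 6 libraries under the minimum of 0.1 RPKM, and 14 were at the lowest listed value in all libraries. Ifnb1, the type I interferon made first in most cells, was listed at 0.001, 0.078 and 0.32 RPKM in the controls and at 0.034, 0.001 and 0.001 RPKM in the siTet1/Tet2 libraries. The groups overlapped, and control replicate 3 held most of the signal.

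Of the 11 receptors, JAKs and STATs, 10 were tested, 3 fell and 2 rose, with a median log2 fold change of 0.06. The share that fell, 30%, was near the 29.8% of all genes tested. Among all genes tested, 14.7% rose. Stat2, whose product binds IRF9 in ISGF3, was at 77.4, 85.6 and 87.6 RPKM in the controls and at 17.0, 19.0 and 18.8 RPKM after the siRNAs, a log2 fold change of -2.13 (adjusted p 6.7e-07). Jak2, a kinase of the interferon-gamma receptor, fell with a log2 fold change of -0.80. Ifnar1 and Il10rb, receptor chains for type I and type III interferons, rose with log2 fold changes of 0.37 and 0.36, while Ifnar2 was at a mean of 109 and 110 RPKM and Ifngr1 at 67.3 and 75.2 RPKM, both with an adjusted p over 0.05. No tested receptor chain fell. Ifnlr1, the other chain of the type III receptor, was at or below 0.046 RPKM in every library and was not tested.

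Upstream of the IRFs, 13 of 20 sensors, adaptors and kinases fell and 1 (Irak4) rose, with a median log2 fold change of -0.45. The share that fell was 65%, against 29.8% of all genes tested, and 14.7% of all genes rose. The largest falls were in cytoplasmic sensors of nucleic acid. Ddx58, which encodes the RNA sensor RIG-I, was at 38.8, 40.2 and 41.4 RPKM in the controls and at 6.52, 6.42 and 6.56 RPKM after the siRNAs. The RNA sensor gene Ifih1 and the cGAS gene Mb21d1 fell with log2 fold changes of -1.65 and -1.09. Tlr7, an endosomal RNA sensor, and Myd88, the adaptor that ties it to IRF5 and IRF7, fell with log2 fold changes of -0.29 and -0.52. Tbk1, the kinase of IRF3 and IRF7, was at a mean of 38.8 RPKM in the controls and 39.4 RPKM in the siTet1/Tet2 group (adjusted p 0.81), whereas its relative Ikbke fell with a log2 fold change of -0.64. Of 8 negative regulators, 5 fell (62.5%, against 29.8% of all genes tested) and none rose. The median was -0.57, and the least negative fold change was -0.15. Usp18, which restrains the type I interferon receptor and is itself an ISRE-driven gene, was at 49.4, 53.2 and 45.3 RPKM in the controls and at 0.805, 2.29 and 1.62 RPKM in the siTet1/Tet2 libraries. Trim21 and Socs1 fell with log2 fold changes of -1.08 and -0.87, and Rbck1 did not pass the test (adjusted p 0.077).

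Of 14 partners and coactivators, 12 were tested, and 1 fell with none rising, by limma, where 29.8% of all genes tested fell and 14.7% rose. The median of the 12 was 0.01. Spi1, the gene of PU.1 that recruits IRF4 and IRF8 to DNA, was at 206, 199 and 181 RPKM in the controls and at 210, 212 and 205 RPKM in the siTet1/Tet2 libraries (adjusted p 0.27). Jun and Junb had adjusted p-values of 0.053 and 0.28, and Ets1 was the gene that fell, with a log2 fold change of -0.84. Jun, at a log2 fold change of 0.17, had an unadjusted p of 0.024 by limma and did not pass after adjustment. Irf2bp1, Irf2bp2 and Irf2bpl, named for binding Irf2 or for their likeness to such proteins, were at means of 10.4, 27.2 and 22.1 RPKM in the controls and 10.7, 29.3 and 18.9 RPKM in the siTet1/Tet2 group, and none of the 3 passed the test in either direction. With the replicate number as a block, Irf2bpl, at a log2 fold change of -0.21 (adjusted p 0.062), was called lower (adjusted p 0.021).

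All 22 ISRE-driven target genes tested fell, with a median log2 fold change of -3.57, from -1.65 in Ifih1 to -4.99 in Ifit3 on the scale with a pseudocount of 1, and the groups did not overlap for any of the 22. By the ratio of the group means, the range ran from 3.2 in Bst2 to 59.6 in Ifi44. Among all genes tested, 29.8% fell, and for 35.9% every siTet1/Tet2 value lay below every control value. The ISRE list had 24 genes, of which Mx1 and Mx2 were not analysed here. Isg15, a ubiquitin-like modifier, was at 120, 119 and 114 RPKM in the controls and at 3.74, 6.83 and 3.76 RPKM in the siTet1/Tet2 libraries. Ifit3 and Ifit2, which bind foreign RNA or its partners, fell with log2 fold changes of -4.99 and -4.37, and Bst2, which tethers virions to the cell, and Oas1a, an oligoadenylate synthetase, with -1.67 and -2.28. In 17 of the 24 genes a RefSeq window was found, and in 11 of these it held the ISRE core shown above for Irf2, against 3.99% of all genes with a window. The genes were chosen as ISRE-driven, so a high share follows from the choice. The part of the ISRE in their falls was not tested. As for Irf7, siTet1/Tet2 replicate 2 was the highest of its group in 19 of the 22 genes, compared with 25.2% of all genes that fell and 28.5% of all genes tested.

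Of 17 tested IRF1-linked targets of interferon-gamma, 16 fell and 1 rose, where 29.8% of all genes tested fell and 14.7% rose. The median of the 17 was -1.04, beside -0.96 for Irf1 itself. On the scale with a pseudocount of 1, the guanylate-binding protein genes Gbp2 and Gbp3 fell most, with log2 fold changes of -2.87 and -2.51, then the peptide transporter gene Tap1 with -1.98. By the ratio of the group means, the chemokine gene Cxcl9 had the greater decrease, from 0.947 to 0.0253 RPKM, a ratio of 37.4 against 10.3 for Gbp2. The MHC class I genes B2m, H2-K1 and H2-D1 were the most abundant and fell with log2 fold changes of -1.80, -1.66 and -0.82, where both heavy chain genes may share reads with near-identical copies. Vcam1, an adhesion molecule, was the exception, at 16.7, 16.3 and 17.8 RPKM in the controls and 57.3, 56.6 and 53.9 RPKM after the siRNAs. Of the 7 tested IRF8-linked myeloid genes, 4 fell (57.1%, against 29.8% of all genes tested) and 2 rose, where 14.7% of all genes rose. Their median was -0.45, which was -0.0048 with no filter on low values, where the 2 untested genes of the list enter. Klf4, Ctsc and Tlr4 fell with log2 fold changes of -1.28, -0.89 and -0.66, Cybb, the NADPH oxidase subunit gene, rose with 0.23, and Cst3 at 0.45 did not pass the test (adjusted p 0.071). The plot of fold changes by list places these groups on a common axis.

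**Figure D4:**
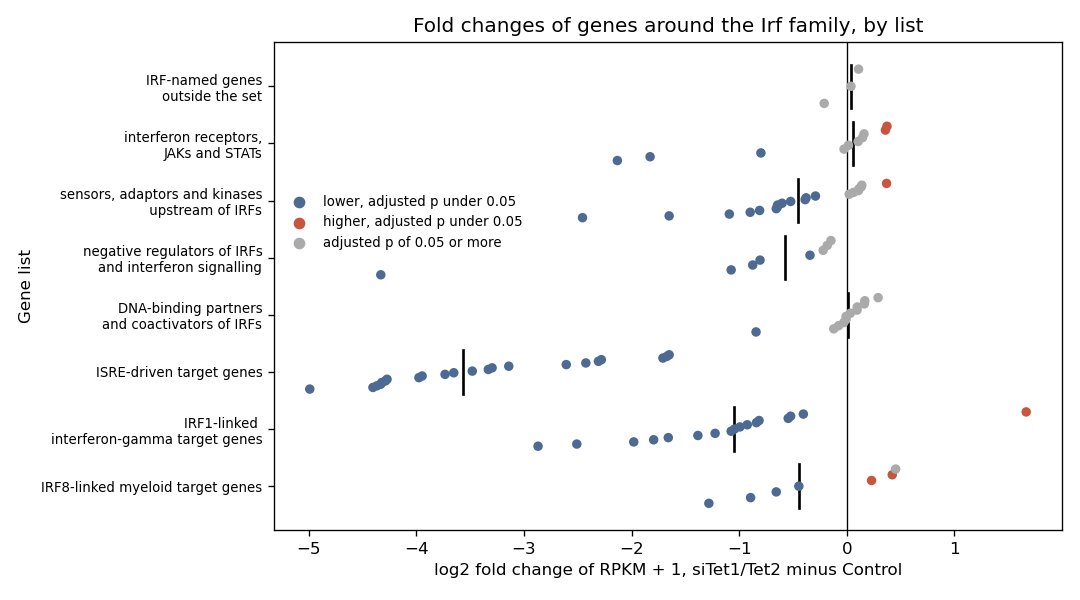
Log2 fold change of RPKM + 1 (siTet1/Tet2 minus control) of each tested gene in 8 lists of genes around the Irf family, with a black line at the list's median; blue marks genes that fell and red genes that rose with an adjusted p under 0.05, grey the others. All ISRE-driven genes lie at or below -1.65, the partners and receptors are scattered around 0, and Vcam1 stands alone to the right.

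The genes whose pattern over the 6 libraries was nearest to each IRF that fell were found by the distance between log2(RPKM + 1) values, each gene centred on its mean over the 6 libraries. The measure is a description, and it rests mainly on the size of the difference between the groups. Nearest to Irf7 were Ifit3, Ccl7 and I830012O16Rik, at distances of 0.38, 0.79 and 0.84. Nearest to Irf9 were Nmi, Gm21188 and Serpina3g, at 0.09, 0.11 and 0.14, and nearest to Irf1 were Dusp6, Slc2a10 and Tpbg, at 0.06, 0.08 and 0.08. Near to Irf5 were Tapbpl and Rmdn3, at 0.05 and 0.06. No gene tested came within 0.38 of Irf7, whereas the nearest gene of each of the other three lay within 0.1.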

How the data were processed

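The authors trimmed the adaptors of paired-end reads from total RNA, aligned them to GRCm38 and used DNASTAR Lasergene for gene abundance. They deposited 1 table of RPKM values per library (the methods name the unit FPKM), with their own p-value for each row, which was not used. Annotation and strand use are not given in the sources used here.

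Where a symbol was repeated (37 symbols), its most abundant row was used, and a gene entered the test if its 6 values averaged 0.1 RPKM or more. The 3 control and 3 siTet1/Tet2 libraries were compared as log2(RPKM + 1) by a two-sided limma test (version 3.58.1, R 4.3.3, with a trended eBayes) and Benjamini-Hochberg adjustment. The smallest p of an exact permutation test with 3 and 3 libraries is 0.1. limma was tested on simulated data. Summaries were made in Python 3.11.15. Gene positions and overlaps are from GENCODE M21, and promoter windows from RefSeq (GRCm38.p6).

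Depth was estimated from low values as 32400000 to 38500000 reads a library, at which 50.0% to 55.8% of those values lay within 0.1 of a whole read, so no count test was run. Within a group, r between libraries was 0.992 to 0.997. Replicate numbers are shared by the labels, and same-numbered libraries deviated together (r 0.149, 0.117 and 0.462), so they were taken as pairs in an alternative fit, although control 1 with siTet1/Tet2 2 and control 2 with siTet1/Tet2 1 reached 0.332 and 0.205.

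The 8 genes and the lists were chosen with earlier results of these data known. In each list, the genes named are the 3 largest changes with an adjusted p under 0.05 and the 3 highest means, besides genes that overlap a member and the 3 nearest in pattern. Tlr4, Ifih1, Usp18 and Il12b are in 2 lists each. Named outside that rule, after their values were seen, are Irak4, Ikbke, Ifnar1, Ifnlr1, Ifnb1, Vcam1, Cxcl9, Ifi44 and single markers. The alternatives were other pseudocounts, filters and scalings, eBayes without trend, the replicate block, each library left out, and repeated rows summed. Some genes that this rule names are not reported here.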

Additional observations from a re-analysis of the deposited data

How the results depend on the processing

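The number of IRF genes that fell was 4 under all 16 alternatives, and the number altered and lower was 2 to 3 under 17. The number that rose was 0, except 1 (Irf8) after median ratio scaling and 1 after quantile normalization, and 0 when each library was left out. The log2 fold change of Irf2 turned positive, at 0.087 and 0.086 after these scalings (adjusted p 0.32 and 0.30), and ranged from -0.063 to 0.02 with 1 library left out. That of Irf3 ranged from -0.018 to 0.146 with 1 library left out. The sign of Irf2 turned without control replicate 2 and that of Irf3 without control replicate 3. In no such case was the adjusted p under 0.05. Irf7 ranged from -5.40 to -4.73, Irf1 from -1.04 to -0.83, Irf9 from -1.23 to -1.01 and Irf5 from -0.53 to -0.35.

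In the lists, after median ratio scaling and quantile normalization, 4 and 5 receptor and STAT genes rose in place of 2, 4 and 6 sensors and kinases in place of 1, and 2 partners in each in place of 0. Among all 13266 genes tested, 2855 and 3607 rose after these scalings in place of 1953, so more genes rose in general. With the replicate block 1 IRF-named gene (Irf2bpl) fell and 1 partner rose, in place of 0 and 0, and the block changed no other list count by over 1.5 times and no call of an IRF gene. Without control replicate 3 and without siTet1/Tet2 replicate 3, 2 and 1 partners rose, without the latter Irf2bpl fell, and without siTet1/Tet2 replicate 1, as with no filter, 1 IRF8-linked gene rose in place of 2. The cause was not tested. Irf4 had no value with a minimum of 1 RPKM. The table holds no counts, which limits what can be said of Irf4 and the ligands.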
